A study of Mus musculus with 8 samples.

Results

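Immune cells of laser-treated and control eyes carried a set of growth factor transcripts. Mononuclear phagocytes, summed together, had more of each of them than lymphocytes. This account follows 10 genes, chosen by symbol from the 32285 genes counted in each library: Igf1, Pdgfa, Pdgfb, Hbegf, Areg, Osm, Tgfb1, Gdf15, Bmp2 and Tgfbi. They were chosen with earlier results of these data known. All 10 were found in all 4 libraries. None of them was used to assign cells to lineages.

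Growth factors are secreted or shed proteins that bind receptor kinases or cytokine receptors on neighbouring cells. In wounded tissue, macrophages and platelets are known sources of them, and they act on blood vessels, pericytes, fibroblasts and epithelium. The latent TGF-beta complex is activated outside the cell, while heparin-binding EGF and amphiregulin are made as membrane proteins and released by proteases, so a transcript level is not a level of active factor.

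The study placed 8 laser burns in each eye of the laser groups to rupture Bruch's membrane, a model of choroidal neovascularization, and sorted live CD45+ cells from retina and choroid at day 3. One library was made for each of 4 groups, so each group is 1 sample: laser-treated Nr4a1-/-, laser-treated WT, control Nr4a1-/- and control WT. Nr4a1 encodes an orphan nuclear receptor, and the knockout was carried by the whole body. The mice were females of 10 to 12 weeks, and eyes of 11 to 12 mice were pooled in each laser group and of 22 mice in each control group, which received no burns and are labelled sham.

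The labels give the strain C57BL/6J for every sample, while the methods of the study name a mixed B6;129S2 knockout line beside C57BL/6J WT mice, so strain and genotype cannot be told apart. The control Nr4a1-/- library is numbered in another set than the other 3 libraries, so that difference and the group cannot be told apart either. With 1 library per group there is no replicate check of laser or of genotype, and no p-value is given for either. Ratios carry exact 95% binomial intervals and levels exact 95% Poisson intervals, which cover counting error only. They are too narrow for genes whose unique molecular identifiers (UMIs, each standing for 1 captured molecule) are concentrated in a few cells. Lineages, in contrast, were measured in all 4 libraries and were tested across them.

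Of 11624 barcodes, 11223 cells were kept, and 9922 of them (88.4%) passed a gate on marker genes fixed for each lineage. The gated cells included 2125 macrophages, 980 microglia, 585 classical monocytes, 464 type 2 conventional dendritic cells (cDC2), 415 neutrophils, 1671 T cells, 1851 B cells and 910 natural killer (NK) cells. A lineage name means only that its markers led in a cell. Of the markers of macrophages, 4 of 9 were highest in that lineage, against 7 of 8 for microglia, 4 of 6 for classical monocytes, 4 of 6 for cDC2 and 7 of 8 for neutrophils. Cells gated as endothelial or photoreceptor had 0 of 5 markers highest in their own gate and are not described. The library of laser-treated Nr4a1-/- eyes was the shallowest, with a median of 3676 UMIs per kept cell, against 5202 to 7618 in the other libraries, and it was the shallowest in each of the 8 lineages named here. Levels are given as CPM, UMIs of the gene divided by all UMIs of the lineage in the library and multiplied by 1e6, and are compared between lineages or libraries for 1 gene at a time, not between genes. Over the 4 libraries, 18 barcodes occurred in more than 1.

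Summed together, mononuclear phagocytes (macrophages, microglia, monocytes and dendritic cells) had more transcript of all 10 genes than lymphocytes (T, B and NK cells). This did not hold for each phagocyte lineage taken alone. Over the 4 libraries, Igf1 had 1.38 CPM in classical monocytes and 1.30 in cDC2, against 4.14 in NK cells. Areg had 0.982 CPM in microglia, against 37.5 in T cells. In edgeR's quasi-likelihood test on 8 sums with the library as a block, 36.8% of all 13201 genes tested were called higher in phagocytes, at a Benjamini-Hochberg adjusted p under 0.05. The median log2 fold change of the 10 genes was 4.38, against -0.02 over all genes tested. Because the genes were chosen with earlier results of these data known, this contrast with all genes is only a description. The difference was largest for Bmp2 (log2 fold change 7.02, SE 0.22, adjusted p = 3.4e-08) and smallest for Tgfb1 (log2 fold change 0.87, SE 0.11, adjusted p = 7.9e-05) and Areg (log2 fold change 1.12, SE 0.18, adjusted p = 0.0004). Tgfb1 and Areg were thus the members that lymphocytes shared most. When lineages were taken from Leiden clusters instead of the gate, Areg lost its call and its direction (log2 fold change -0.05, adjusted p = 0.86).

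**Figure D1:**
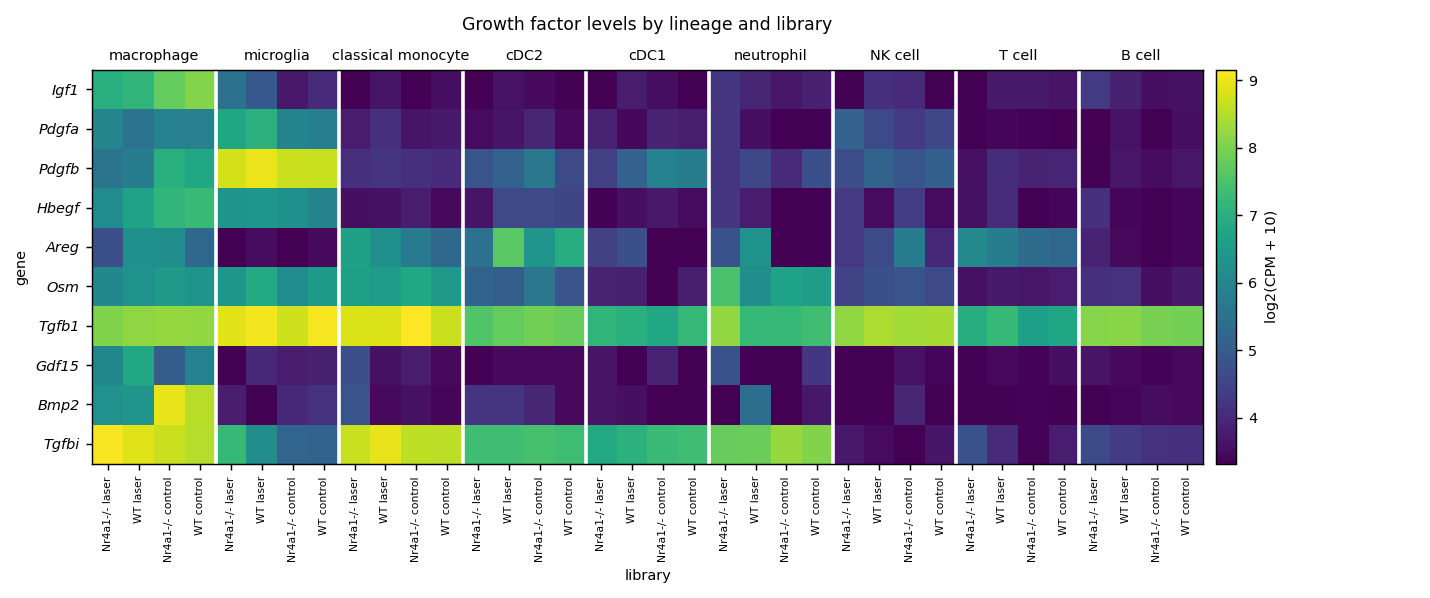
Level of each of the 10 growth factor genes in 9 lineages and 4 libraries, as log2(CPM + 10) on a colour scale, with 1 block of 4 columns (laser Nr4a1-/-, laser WT, control Nr4a1-/-, control WT) for each lineage. Igf1, Bmp2 and Gdf15 stand out in macrophages and Pdgfb in microglia in all 4 libraries, while Tgfb1 is spread over all lineages.

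In 4 of the 10 genes the highest of the 9 lineages was the same in all 4 libraries. These were Igf1, Gdf15 and Bmp2, highest in macrophages, and Pdgfb, highest in microglia. Macrophages exceeded microglia in 6 genes and fell below them in 2, where 19.4% of 13232 genes were called higher and 16.6% lower. Macrophages exceeded classical monocytes in 6 genes and fell below them in 1, where 19.4% of 12526 genes were called higher and 16.5% lower. Neutrophils exceeded mononuclear phagocytes in 1 gene, Osm, and fell below them in 8, where 16% of 12825 genes were called higher and 23% lower.

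**Figure D2:**
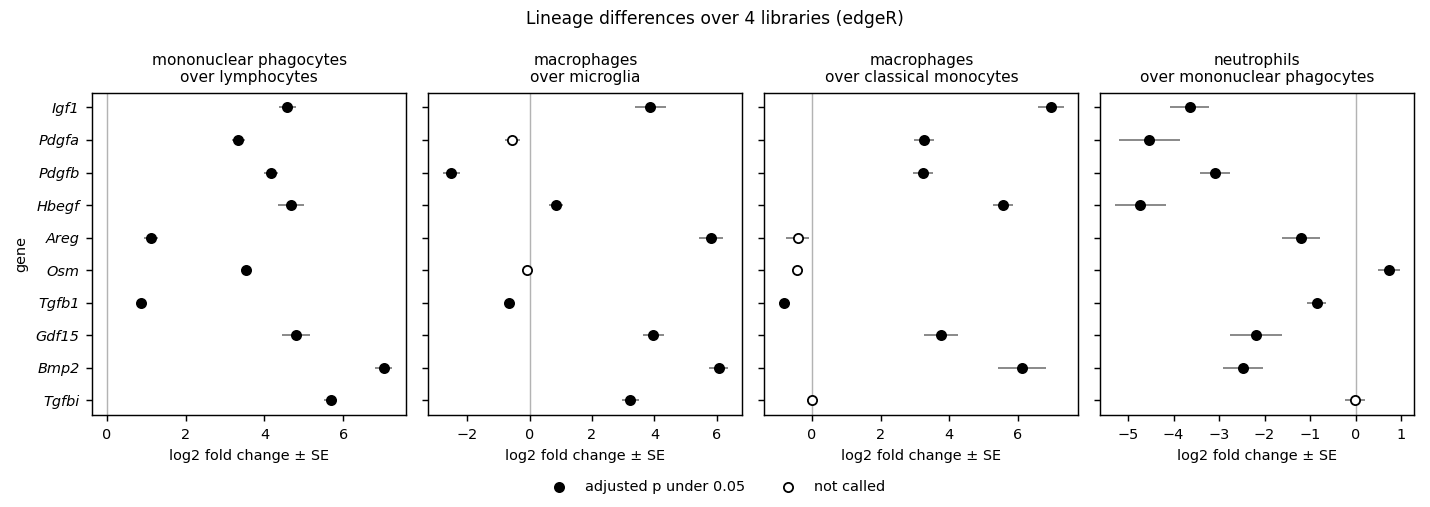
Log2 fold change of each growth factor gene between lineages, fitted with edgeR over 4 libraries, in 4 panels (1 contrast each). Error bars are SE and filled points have an adjusted p under 0.05. All 10 genes lie right of 0 for phagocytes over lymphocytes, and in neutrophils over phagocytes only Osm lies right of 0 with a filled point.

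Igf1 encodes insulin-like growth factor 1, which acts through the Igf1r receptor kinase on growth and survival of many cells, including those of retina and vessels. The gene lies at chr10:87858265-87937042 on the plus strand (GRCm38). Its transcripts came mostly from macrophages, which held 89.6% to 93.8% of its UMIs in gated cells of a library. Over all kept cells of the 4 libraries, gated or not, macrophages held 2825 of 3528 UMIs. The shares of UMIs given below for a lineage are also shares of gated cells. Macrophages had 117 CPM in laser Nr4a1-/-, 133 in laser WT, 212 in control Nr4a1-/- and 260.4 in control WT. A UMI was seen in 31.5%, 39.6%, 37.1% and 40.8% of macrophages in the same order, against 1.18%, 2.13%, 0.832% and 0.484% of B cells. B cells were also shallower, with medians of 1966 to 4237 UMIs, against 5066 to 11193.5 in macrophages.

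Classical monocytes had at most 5 UMIs of Igf1 in a library, and macrophages exceeded them by a log2 fold change of 6.97 (SE 0.38, adjusted p = 2.0e-07). The level in macrophages was lower in both laser libraries than in both control libraries. Laser over control was 0.553 (95% interval 0.472 to 0.646) in Nr4a1-/- and 0.511 (0.469 to 0.558) in WT. In resident macrophages, gated on Lyve1, Folr2, Cd163 and related genes, the ratios were nearer to 1, at 0.781 (0.628 to 0.969) in Nr4a1-/- and 0.809 (0.713 to 0.919) in WT. After laser, resident macrophages had 199 CPM in Nr4a1-/- and 239 in WT. Of 2 other macrophage kinds described below, MDM-B had 100.9 and 133.2 CPM and MDM-A 38.3 and 75.5 (Nr4a1-/- first). Resident cells were 154 of 467 macrophages in laser Nr4a1-/- and 203 of 896 in laser WT, against 100 of 264 in control Nr4a1-/- and 211 of 498 in control WT.

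In microglia the change was in the other direction. Igf1 had 35.8 CPM in laser Nr4a1-/- and 20.5 in laser WT, against 3.16 in control Nr4a1-/- and 6.44 in control WT. These levels rest on 20, 69, 5 and 17 UMIs, of which 1 cell held 9 in laser Nr4a1-/- and 25 in laser WT. The ratio of laser to control was 11.3 (4.13 to 38.6) in Nr4a1-/- and 3.18 (1.85 to 5.77) in WT. Few cells carried it: 4.46% and 6.96% of laser microglia had a UMI, against 2.03% and 2.15% of control microglia (Nr4a1-/- first in each pair). The microglial values are below those of macrophages in every library, and the WT ratio was 1.74 with Leiden clusters.

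The 150 bases before the RefSeq start of Igf1 are shown because they hold the only AP-1 letters found among the promoter windows of the growth factor genes. They lie at chr10:87860961-87861110 on the plus strand (RefSeq, GRCm38.p6), inside the longer GENCODE gene model, and the capitals mark TGAATCA, 37 to 31 bases before the start.
Igf1: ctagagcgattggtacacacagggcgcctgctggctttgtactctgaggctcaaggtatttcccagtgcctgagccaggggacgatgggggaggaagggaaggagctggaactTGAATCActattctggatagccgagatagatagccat
The AP-1 letters TGANTCA, read on both strands, occur in 7.81% of 32851 RefSeq windows that run from 250 bases before to 50 bases after a start.

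Pdgfa and Pdgfb encode chains of platelet-derived growth factor, which signal through Pdgfra and Pdgfrb on fibroblasts and pericytes. Pdgfa lies at chr5:138976014-138997370 and Pdgfb at chr15:79995874-80014977, both on the minus strand (GRCm38). Pdgfb was the most microglial of the 10 genes by its share of UMIs, with 65.4% to 69.2% of them in microglia. Microglia had 430 CPM in laser Nr4a1-/-, 499.9 in laser WT, 405 in control Nr4a1-/- and 395 in control WT. Macrophages had 37.3, 45.1, 120.2 and 103 CPM in the same order. The ranges of both lineages did not overlap, and macrophages were below microglia by a log2 fold change of -2.51 (SE 0.28, adjusted p = 7.1e-05).

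Within macrophages, Pdgfb was lower after laser in both genotypes, while in microglia it was not. Laser over control in macrophages was 0.31 (0.24 to 0.398) in Nr4a1-/- and 0.438 (0.379 to 0.507) in WT. In microglia the ratios were 1.06 (0.911 to 1.23) and 1.26 (1.17 to 1.37). In resident macrophages alone, the ratio was 0.182 (0.0682 to 0.418) in Nr4a1-/-, on 7 UMIs after laser, and 0.757 (0.502 to 1.14) in WT. Non-classical monocytes of WT eyes had 67.4 CPM after laser and 42.4 CPM in control, while the Nr4a1-/- libraries held too few such cells to give a level.

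Pdgfa was shared by microglia and macrophages. Microglia had 98.5 CPM in laser Nr4a1-/- and 124 in laser WT, against 51.8 in control Nr4a1-/- and 47.0 in control WT. Macrophages had 53.0, 36.9, 50.1 and 48.6 CPM in the same order, and the lineage difference was not called (log2 fold change -0.55, SE 0.25, adjusted p = 0.11). In microglia both laser libraries exceeded both control libraries, by 1.90 (1.33 to 2.71) in Nr4a1-/- and 2.64 (2.15 to 3.25) in WT. With each cell thinned to 2000 UMIs, 19.4% and 19.8% of laser microglia had a UMI of Pdgfa, against 8.76% and 8.81% of control microglia (Nr4a1-/- first). In T cells, which carried almost none, the thinned share was at most 0.51%. NK cells came next, with 25.9, 14.9, 9.84 and 13.8 CPM (8, 24, 9 and 21 UMIs), below macrophages in every library.

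Among macrophages, Pdgfa was high in cells gated as MDM-B, a kind the study named monocyte-derived macrophages and marked here by Spp1, Gpnmb, Fabp5 and related genes. MDM-B had 100.9 CPM in laser Nr4a1-/- and 69.9 in laser WT, against 28.1 and 22.6 in resident macrophages. Only 6 and 3 MDM-B cells were gated in the control libraries, so their laser ratio is not given. In resident macrophages, Pdgfa was lower after laser, by 0.497 (0.285 to 0.848) in Nr4a1-/- and 0.524 (0.356 to 0.767) in WT.

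**Figure D3:**
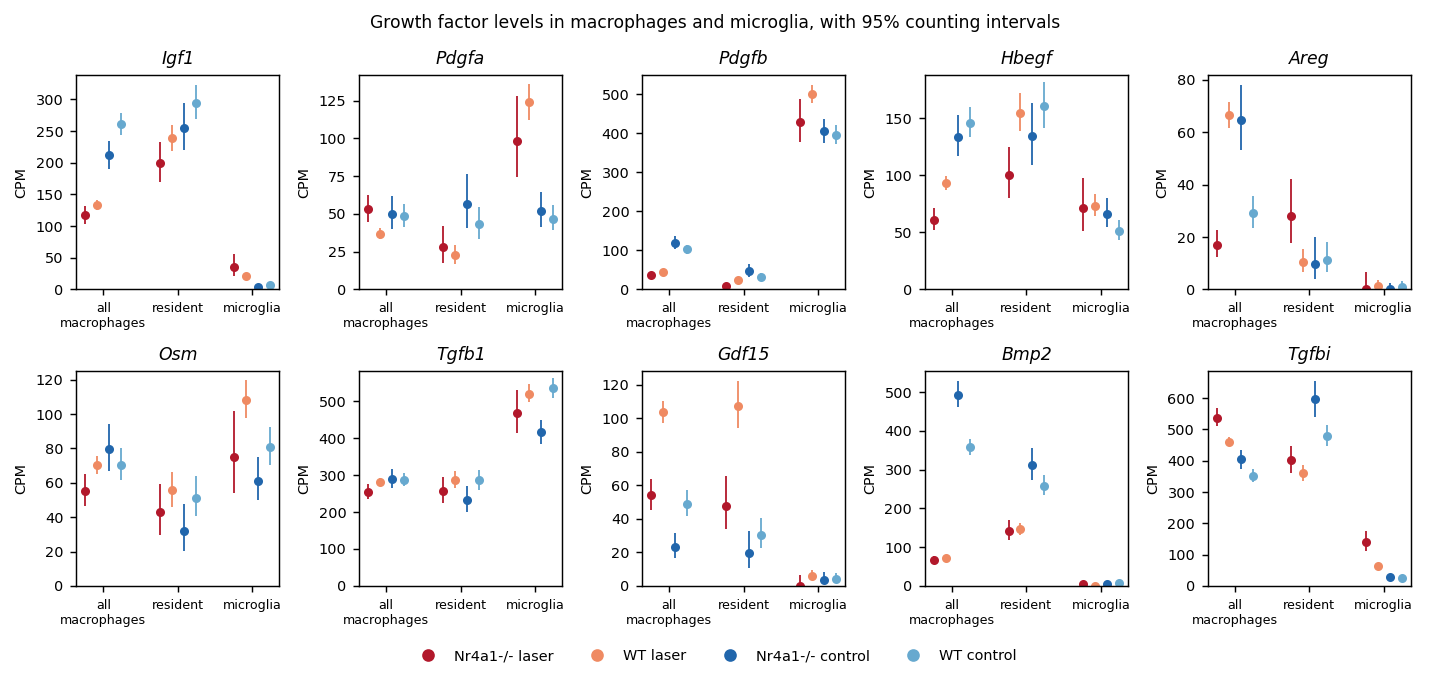
CPM of the 10 growth factor genes in all macrophages, resident macrophages and microglia, with 1 point per library in the order laser Nr4a1-/-, laser WT, control Nr4a1-/- and control WT; bars are 95% Poisson intervals, which cover counting error only. Bmp2 and Pdgfb are lower in macrophages of both laser libraries, Gdf15 is higher in them, and Pdgfa, Igf1 and Tgfbi are higher in laser microglia.

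Hbegf and Areg belong to the epidermal growth factor family and signal through Egfr. Hbegf encodes a membrane precursor that also binds heparin. Macrophages held 62.5% to 75% of its UMIs. They had 61.2 CPM in laser Nr4a1-/-, 93.2 in laser WT, 134 in control Nr4a1-/- and 146 in control WT, while microglia had 71.6, 73.4, 66.4 and 51.5 CPM. The ranges overlapped, since microglia led in laser Nr4a1-/-. Macrophages were above microglia by a log2 fold change of 0.86 (SE 0.22, adjusted p = 0.011), a call that was lost without the control WT library (0.58, adjusted p = 0.076). The gene was nearly absent from classical monocytes, with 1.14 to 3.89 CPM.

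After laser, Hbegf was lower in macrophages, by 0.458 (0.371 to 0.564) in Nr4a1-/- and 0.638 (0.571 to 0.715) in WT. Resident macrophages had 100.3 CPM in laser Nr4a1-/- and 154 in laser WT, against 134 in control Nr4a1-/- and 160.2 in control WT. Their laser ratios had intervals that included 1, at 0.749 (0.551 to 1.02) and 0.964 (0.817 to 1.14). The other kinds of macrophage differed from each other after laser: MDM-A, gated on Cxcl1, Cxcl2, Ccl2 and related genes, had 40.4 CPM in Nr4a1-/- and 87.8 in WT, while MDM-B had 6.31 and 10.8 CPM. Hbegf was lower in Nr4a1-/- than in WT macrophages after laser (0.657, 0.551 to 0.779), and the ratio in controls had an interval that included 1 (0.916, 0.778 to 1.08).

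**Figure D4:**
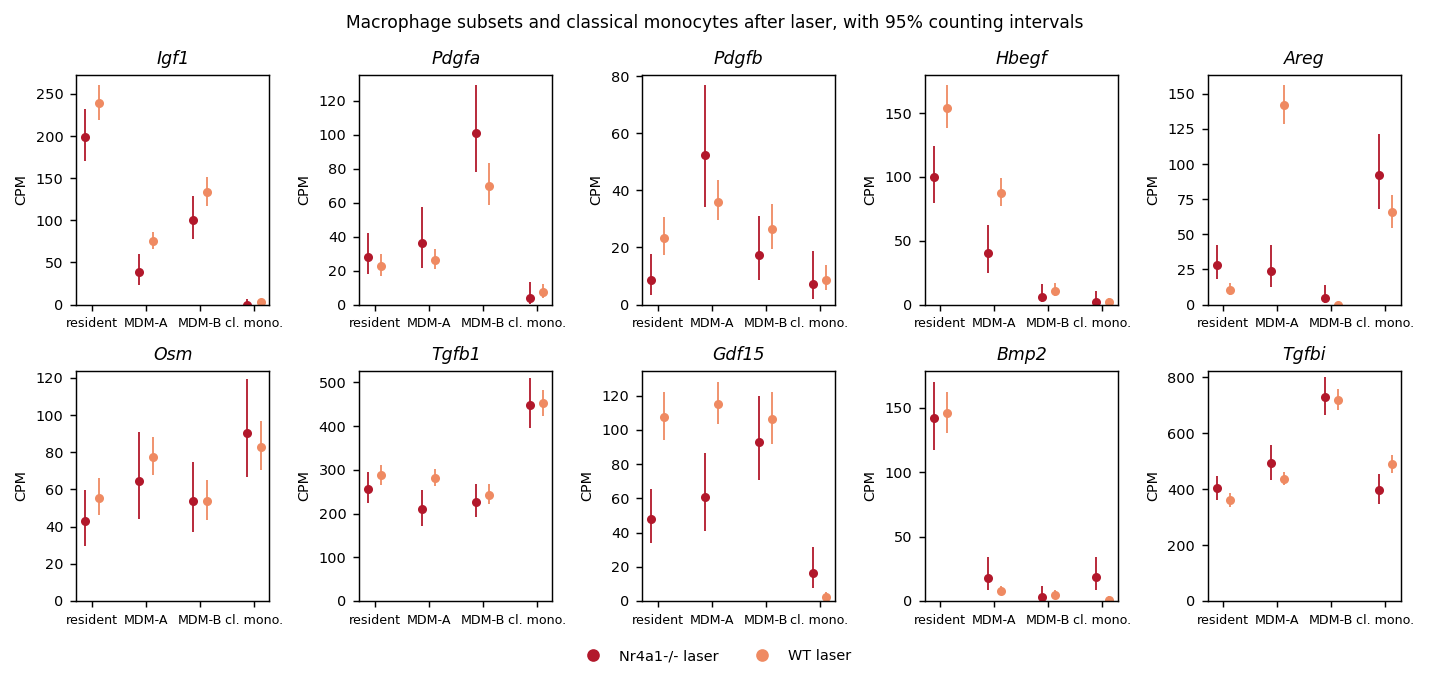
CPM of the growth factor genes after laser in resident macrophages, MDM-A, MDM-B and classical monocytes, with Nr4a1-/- left of WT; bars are 95% Poisson intervals, which cover counting error only. MDM-B are low in Hbegf and Bmp2 and high in Pdgfa and Tgfbi, and resident macrophages are high in Igf1 and Bmp2, in both laser libraries.

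Areg encodes amphiregulin, known for its part in barrier repair and as a product of type 2 innate lymphoid cells (ILC2) and regulatory T cells. It lies at chr5:91139599-91148432 on the plus strand (GRCm38). No lineage led in all 4 libraries: cDC2 were highest in 3 of them and classical monocytes in laser Nr4a1-/-. cDC2 had 35.2 CPM in laser Nr4a1-/-, 193 in laser WT, 73.0 in control Nr4a1-/- and 114 in control WT. Classical monocytes had 92.1, 65.6, 42.8 and 29.5 CPM. Neighbours in the order of levels overlapped down to NK cells. Microglia were at the floor, with 0, 5, 0 and 3 UMIs, and macrophages were above them by a log2 fold change of 5.80 (SE 0.39, adjusted p = 2.8e-06).

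The 24 cells gated as ILC2 carried 167 UMIs of Areg, a level of 1731 CPM (1478 to 2014) over all 4 libraries. They numbered 8 in laser Nr4a1-/-, 10 in laser WT, 4 in control Nr4a1-/- and 2 in control WT, too few for a level per library. Of these cells, 12 (50%, exact 95% binomial interval 29.1% to 70.9%) had a UMI. T cells had 57.1 CPM in laser Nr4a1-/-, 45.8 in laser WT, 32.0 in control Nr4a1-/- and 28.8 in control WT. A UMI of Areg was present in 4.73% to 6.68% of T cells, while 0% to 1.45% of microglia, which were deeper, had one.

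Single cells decided several levels of Areg. In control Nr4a1-/- macrophages 1 cell held 57 of 110 UMIs, and in NK cells of the same library 1 cell held 28 of 42. In laser WT neutrophils 1 cell held 35 of 40 UMIs. In laser WT cDC2, by contrast, 535 UMIs were spread over 25.1% of the cells, with at most 54 in 1 cell, while in laser Nr4a1-/- cDC2 28 UMIs were found in 8.04% of the cells. The ratio of Nr4a1-/- to WT in laser cDC2 was 0.182 (0.12 to 0.266), and 0.133 with the cell of most UMIs left out of each library. In controls it was 0.64 (0.462 to 0.881), and 0.835 without those cells.

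In macrophages, Areg had 16.9 CPM in laser Nr4a1-/-, 66.4 in laser WT, 64.8 in control Nr4a1-/- and 29.0 in control WT. The laser WT level came mainly from MDM-A, with 142 CPM and 428 of the 669 UMIs, against 24.2 CPM in MDM-A of laser Nr4a1-/-. Resident macrophages had 28.1 CPM in laser Nr4a1-/- and 10.4 in laser WT, the opposite order. In classical monocytes, Areg was higher after laser in both genotypes, by 2.15 (1.46 to 3.16) in Nr4a1-/- and 2.22 (1.60 to 3.13) in WT. That rise did not hold when the gate was made stricter or replaced by clusters, where the WT ratio was 0.609 and 0.582.

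**Figure D5:**
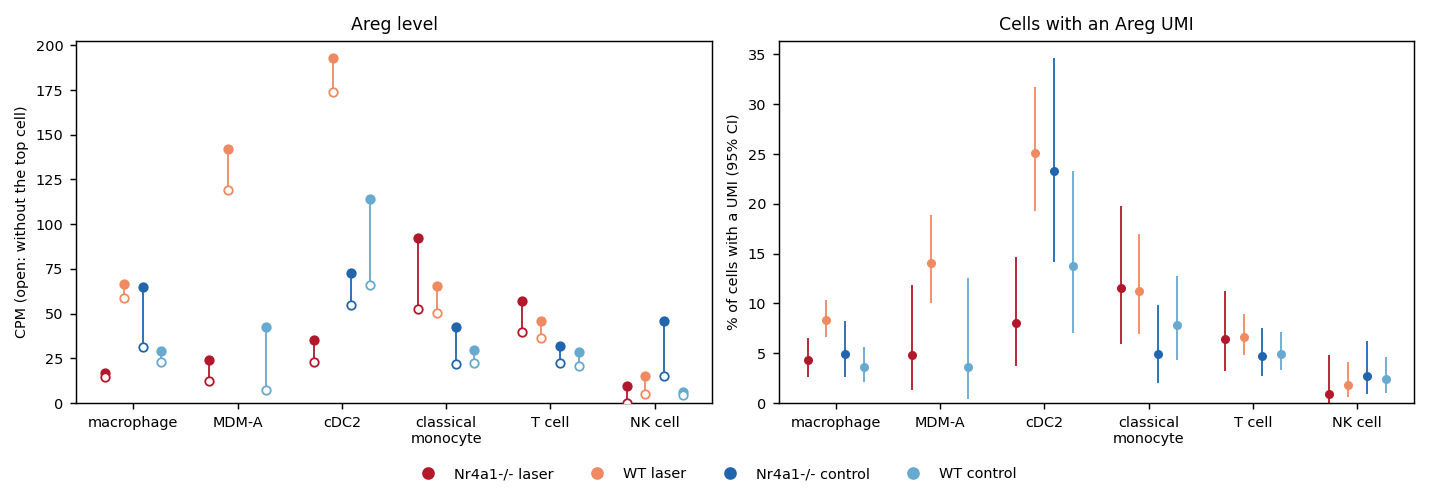
Areg in 6 lineages or macrophage kinds by library, as CPM (filled points; open points leave out the cell with the most Areg UMIs) and as the percentage of cells with a UMI (bars are exact 95% binomial intervals). Filled and open points lie far apart in control Nr4a1-/- macrophages and NK cells, where 1 cell held 57 of 110 and 28 of 42 UMIs, and in control WT cDC2, where 1 cell held 44 of 102.

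The 150 bases before the start of Areg are shown because they hold the only CRE letters found among the promoter windows. They lie at chr5:91139449-91139598 on the plus strand (RefSeq, GRCm38.p6), and the capitals mark TGACGTCA, 61 to 54 bases before the start.
Areg: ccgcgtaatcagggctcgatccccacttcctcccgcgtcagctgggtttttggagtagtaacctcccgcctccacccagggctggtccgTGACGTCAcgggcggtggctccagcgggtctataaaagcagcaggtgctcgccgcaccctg
The CRE letters TGACGTCA, which read the same on both strands, occur in 1.79% of 32851 windows. The NBRE letters AAAGGTCA, known as a site of the Nr4a receptors, occur in 1.51% of all windows and in 0 of the 8 windows of 6 growth factor genes. Pdgfb, Hbegf, Osm and Bmp2 were not among the windows.

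Osm encodes oncostatin M, a cytokine of the interleukin-6 family that signals through Osmr or Lifr with Il6st. It lies at chr11:4236420-4241026 on the plus strand (GRCm38). It was the only one of the 10 genes called higher in neutrophils than in mononuclear phagocytes (log2 fold change 0.73, SE 0.25, adjusted p = 0.014). Neutrophils had 169 CPM in laser Nr4a1-/-, 64.9 in laser WT, 94.0 in control Nr4a1-/- and 85.3 in control WT. These rest on 19, 37, 31 and 56 UMIs, and the call was lost without laser Nr4a1-/- (adjusted p = 0.10) and without control WT (adjusted p = 0.077).

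Classical monocytes had 90.2, 83.0, 104 and 77.3 CPM, microglia 75.2, 108, 61.3 and 81.1 CPM, and macrophages 55.3, 70.2, 79.5 and 70.6 CPM, each in the order laser Nr4a1-/-, laser WT, control Nr4a1-/- and control WT. The ranges of neutrophils, classical monocytes, microglia and macrophages all overlapped with their neighbour. Dendritic cells were lower, with 19.0 to 39.8 CPM in cDC2 and 0 to 4.68 CPM in type 1 conventional dendritic cells. The 46 cells gated as mast cells or basophils held 140 UMIs, a level of 674 CPM (567 to 796), with a UMI in 47.8% of them (32.9% to 63.1%). In 1 of these cells there were 47 UMIs. Laser ratios of Osm in macrophages, microglia and classical monocytes lay between 0.696 and 1.34.

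Tgfb1, Gdf15 and Bmp2 belong to the TGF-beta superfamily. Tgfb1 encodes the latent cytokine that restrains inflammation and drives fibrosis, and microglia are known to depend on it. It lies at chr7:25687002-25705077 on the plus strand (GRCm38). Each of the 9 lineages carried it. Microglia had 469 CPM in laser Nr4a1-/-, 521 in laser WT, 417 in control Nr4a1-/- and 535 in control WT, and classical monocytes had 449, 452, 562 and 406 CPM.

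NK cells followed with 282 to 336 CPM, then macrophages with 254 to 290.4, B cells with 236 to 268 and cDC2 with 182 to 231. T cells were lowest among these, with 114 CPM in laser Nr4a1-/-, 142 in laser WT, 88.8 in control Nr4a1-/- and 98.8 in control WT. Macrophages were below microglia (log2 fold change -0.65, SE 0.14, adjusted p = 0.0051) and below classical monocytes (log2 fold change -0.82, SE 0.16, adjusted p = 0.0022). Lymphocytes held 15.2% to 29.5% of its UMIs. Laser ratios in macrophages and microglia lay between 0.875 and 1.13.

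Gdf15 encodes growth differentiation factor 15, a stress-induced hormone whose receptor Gfral is known from the hindbrain. It lies at chr8:70629393-70632456 on the minus strand (GRCm38). Macrophages held 66.1% to 95.9% of its UMIs. They had 54.1 CPM in laser Nr4a1-/- and 103 in laser WT, against 22.98 in control Nr4a1-/- and 48.9 in control WT. Each laser library exceeded the control of its genotype, and each Nr4a1-/- library was below the WT library of the same treatment.

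The ratio of laser to control for Gdf15 in macrophages was 2.36 (1.64 to 3.45) in Nr4a1-/- and 2.12 (1.79 to 2.52) in WT. It was the only one of the 10 genes at least 2-fold higher after laser in both genotypes, where 2.4% of 8721 genes were. The direction was the same in resident macrophages, at 2.47 (1.31 to 4.92) in Nr4a1-/- and 3.54 (2.58 to 4.93) in WT. In laser WT eyes 1 resident macrophage held 112 of 238 UMIs, and the WT ratio was 2.14 with the cell of most UMIs left out of each library. After laser, MDM-A had 60.5 CPM in Nr4a1-/- and 115 in WT, and MDM-B had 93.1 and 106 CPM.

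Between genotypes, Gdf15 in macrophages had a ratio of Nr4a1-/- to WT of 0.523 (0.435 to 0.626) after laser and 0.47 (0.322 to 0.672) in control. The first ratio is just short of 2-fold, so it is not counted among genes past that fold. Without the upper limit on detected genes per cell, both ratios passed it. A UMI was present in 10.1% and 15.7% of laser macrophages and in 6.44% and 10.2% of control macrophages (Nr4a1-/- first), against 0.208% to 0.592% of B cells, which were shallower. Thinned to 2000 UMIs, the shares of macrophages were 7.11% and 7.87% after laser and 3.07% and 5.34% in control.

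Bmp2 encodes bone morphogenetic protein 2, which signals through Bmpr1a and Bmpr2 to the Id genes. It lies at chr2:133552159-133562885 on the plus strand (GRCm38). In macrophages its laser ratios were the farthest from 1 of the 10 genes. They had 67.5 CPM in laser Nr4a1-/- and 72.6 in laser WT, against 494 in control Nr4a1-/- and 359 in control WT. The ratio of laser to control was 0.137 (0.115 to 0.161) in Nr4a1-/- and 0.202 (0.184 to 0.222) in WT. Bmp2 and Pdgfb were the 2 genes of the 10 at least 2-fold lower after laser in both genotypes, where 4.22% of 8721 genes were.

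Fewer macrophages carried Bmp2 after laser. At 2000 UMIs per cell, 7.63% and 6.67% of laser macrophages had a UMI, against 26.3% and 18.3% of control macrophages (Nr4a1-/- first). In T cells the thinned share was at most 0.299%. The kinds of macrophage also differed. After laser, MDM-A had 18.2 CPM in Nr4a1-/- and 7.95 in WT, and MDM-B had 3.15 and 4.33 CPM, while resident macrophages had 142 and 146 CPM. For MDM-A this did not hold in control WT, where 55 cells had 290 CPM (123 UMIs), against 259 in resident macrophages. The laser ratio of MDM-A in WT was 0.0274 (0.0169 to 0.0427). Control Nr4a1-/- held only 17 MDM-A cells, so no ratio is given there. Within resident macrophages the laser ratio was 0.455 (0.36 to 0.571) in Nr4a1-/- and 0.563 (0.485 to 0.653) in WT.

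The 38 cells gated on Mmp13 and P2rx7 held 320 UMIs of Bmp2. The group numbered 3 and 8 cells in the laser libraries and 13 and 14 cells in the control libraries. Its level was 1151 CPM in control Nr4a1-/- and 1383 in control WT, above resident macrophages of the same libraries at 312 and 259 CPM. These control levels rest on 13 and 14 cells, under the 20 cells asked of a lineage in the rankings. The markers of this kind were chosen with earlier results of these data known, so its higher Bmp2 is only a description. With still fewer cells, its laser levels are not compared.

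Tgfbi encodes a matrix protein induced by TGF-beta, which binds collagen and integrins and is known for corneal dystrophies. It lies at chr13:56609523-56639562 on the plus strand (GRCm38). Macrophages had 538 CPM in laser Nr4a1-/-, 461 in laser WT, 404 in control Nr4a1-/- and 352 in control WT, and classical monocytes had 398, 489, 377 and 371 CPM. The ranges overlapped and no difference was called (log2 fold change 0.01, SE 0.17, adjusted p = 0.97). Neutrophils had 214 to 297 CPM and were not called different from mononuclear phagocytes (log2 fold change -0.01, SE 0.22, adjusted p = 0.97), while B cells had 7.52 to 14.8 CPM.

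Tgfbi was higher after laser in microglia. They had 141 CPM in laser Nr4a1-/- and 63.9 in laser WT, against 27.2 in control Nr4a1-/- and 26.5 in control WT. The ratio was 5.21 (3.55 to 7.73) in Nr4a1-/- and 2.41 (1.83 to 3.20) in WT. Thinned to 2000 UMIs, 20.4% and 9.91% of laser microglia had a UMI, against 6.19% and 4.72% of control microglia (Nr4a1-/- first), while NK cells had at most 1.37%. With Leiden clusters the WT ratio was 1.98, below the 2-fold limit.

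In macrophages the direction of Tgfbi depended on which cells were counted. Over all macrophages, laser over control was 1.33 (1.21 to 1.46) in Nr4a1-/- and 1.31 (1.23 to 1.40) in WT. In resident macrophages it was 0.675 (0.583 to 0.781) and 0.751 (0.679 to 0.83). MDM-B, which were gated in numbers only after laser, had 730.2 CPM in Nr4a1-/- and 719.7 in WT, against 402 and 359.8 in resident macrophages of the same libraries.

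Counted over the lineages, 3 of the 10 genes passed 2-fold between laser and control in macrophages. Gdf15 was higher and Bmp2 and Pdgfb lower in both genotypes, where 2.4% of 8721 genes were higher and 4.22% lower. In resident macrophages alone, only Gdf15 passed it in both genotypes, where 1.05% of 5706 genes were higher and 0.876% lower. In microglia, 7 of the 10 genes had enough UMIs to be judged. Igf1 and Tgfbi were higher in both genotypes, where 1.64% of 7215 genes were higher and 1.25% lower. Neither passed the fold in both genotypes with Leiden clusters. In classical monocytes, 4 genes could be judged and Areg was higher, where 0.255% of 6663 genes were higher and 0.105% lower. That call was lost with a stricter gate, with Leiden clusters and with thinning. Under the stricter gate and the clusters, the direction of Areg in WT was reversed. Between genotypes, 0 of the genes that could be judged (10 in macrophages, 6 in microglia and 4 in classical monocytes) were at least 2-fold different in the same direction with and without laser. The background for that count was 0.0763% higher and 0.185% lower of 9180 genes in macrophages, 0.143% and 0.76% of 8418 in microglia, and 0.0715% and 0.672% of 6992 in classical monocytes. Bmp2 in classical monocytes had too few UMIs to be judged, with 10 in Nr4a1-/- and 2 in WT after laser (ratio 18.1, 3.86 to 169.8) and 3 in Nr4a1-/- and 1 in WT in control (ratio 3.42, 0.275 to 179.7).

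Transcripts of some other cells differed between laser and control macrophages, most clearly those of retinal pigment epithelium and fibroblasts. The summed level of 6 retinal pigment epithelium markers was 7.06 CPM in laser Nr4a1-/- and 9.23 in laser WT, against 57.7 in control Nr4a1-/- and 29.0 in control WT, and 3, 0, 1 and 0 of the 6 were at 0. For 5 photoreceptor markers the sums were 7.85 and 8.44 CPM after laser, against 22.98 and 9.46 in control, with 1, 0, 0 and 2 of the 5 at 0. For 5 fibroblast markers they were 1.96 and 4.96 CPM after laser, against 7.66 and 13.6 in control (Nr4a1-/- first in each pair), with 1, 0, 0 and 1 of the 5 at 0. For 5 endothelial markers they were 30.6 and 19.3 CPM after laser, against 23.6 and 27.1 in control, higher after laser in Nr4a1-/- and lower in WT. The 21 cells gated as fibroblasts had 46 UMIs of Igf1, a level of 290.4 CPM (213 to 387) with 20 of the UMIs in 1 cell, and the 40 gated as retinal pigment epithelium had 18 UMIs each of Bmp2 and Pdgfa, a level of 98.1 CPM (58.1 to 155). In microglia the epithelial sum was 7.16 and 27.3 CPM after laser, against 6.32 and 5.30 in control, and the photoreceptor sum was 23.3 and 24.4 CPM, against 13.9 and 12.1, while the fibroblast sum was 0 and 1.78 CPM, against 0 and 0. The part of such RNA in the laser ratios was not tested.

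Other genes of the same pathways, from 4 lists also chosen with earlier results of these data known, followed the lineages in part. Of 19 other ligands, 9 were tested for macrophages over microglia, and 4 were higher and 2 lower, with a median log2 fold change of 0.83. Over all genes of that contrast 19.4% were called higher and 16.6% lower, with a median of 0.05. Pdgfc, another PDGF chain, had 63.2 CPM in macrophages and 1.35 in microglia (log2 fold change 5.84, SE 0.35, adjusted p = 1.8e-06). Gdf3 had 24.0 CPM in macrophages and 0.245 in microglia (log2 fold change 6.21, SE 0.50, adjusted p = 8.7e-06). Il6 was lower in macrophages, at 7.43 CPM, than in classical monocytes, at 38.9 CPM (log2 fold change -2.23, SE 0.21, adjusted p = 1.2e-05).

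Of 24 receptor genes, 18 were tested for macrophages over microglia, and 2 were higher (against 19.4% of all genes) and 9 lower (against 16.6%), with a median log2 fold change of -0.59. Egfr, the receptor of Hbegf and Areg, had 19.7 CPM in macrophages and 0.368 in microglia (log2 fold change 6.12, SE 0.52, adjusted p = 1.3e-05). Itgb3, an integrin chain, had 2.40 CPM in macrophages and 23.7 in microglia (log2 fold change -2.95, SE 0.29, adjusted p = 3.0e-05). Against classical monocytes, 8 of 17 receptor genes were higher in macrophages and 0 lower, where 19.4% of all genes were higher and 16.5% lower. Pdgfra, Erbb2, Erbb4, Osmr, Gfral and Bmpr1b were too low to be tested in any of the 4 contrasts.

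Of 23 genes for binding, storage and release, 14 were tested for macrophages over microglia, and 7 were higher (against 19.4% of all genes) and 2 lower (against 16.6%), with a median log2 fold change of 0.84. Thbs1, an activator of latent TGF-beta, had 299 CPM in macrophages and 13.6 in microglia (log2 fold change 3.50, SE 0.44, adjusted p = 0.00016), but 1286 CPM in classical monocytes, above macrophages (log2 fold change -3.22, SE 0.74, adjusted p = 0.0053). Igfbp4, which binds Igf1, had 84.1 CPM in macrophages and 2.58 in classical monocytes (log2 fold change 5.23, SE 0.33, adjusted p = 5.0e-07). In neutrophils Igfbp6 had 74.3 CPM, against 4.64 in mononuclear phagocytes (log2 fold change 4.23, SE 0.33, adjusted p = 8.4e-18).

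Of 13 feedback and target genes, all were tested for macrophages over microglia, and 2 were higher (against 19.4% of all genes) and 7 lower (against 16.6%), with a median log2 fold change of -0.72. Smad7, an inhibitor induced by TGF-beta, had 43.2 CPM in macrophages and 393 in microglia (log2 fold change -2.88, SE 0.17, adjusted p = 1.6e-06). Id3, a target of BMP signals, had 59.7 CPM in macrophages and 6.38 in microglia (log2 fold change 3.06, SE 0.29, adjusted p = 2.4e-05). The other Id genes listed were not called, with 2.40 and 4.30 CPM for Id1 and 201 and 334 for Id2. Id3 had 167 CPM in classical monocytes, above macrophages (log2 fold change -1.88, SE 0.25, adjusted p = 0.00012). By the same 2-fold limit in both genotypes, laser macrophages had more Gdf3 (of 3 other ligands judged) than control macrophages. They had less Egfr, Tgfbr2 and Bmpr1a (of 13 receptor genes judged). Of 9 genes judged for binding, storage and release, Thbs1 was higher and Igfbp4 lower. Of 9 feedback and target genes judged, 0 passed the limit. Over all 8721 genes, 2.4% were higher and 4.22% lower.

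The genes most like each growth factor were found by Pearson's r of log2(CPM + 10) over 39 sums of a lineage and a library, among 11264 genes. These sums share libraries and depth, so r is a description. The closest to Igf1 were C4b (r = 0.957) and Fcna (0.953), to Bmp2 Vsig4 (0.940) and Lyve1 (0.925), of which Lyve1 is a marker of the resident gate, and to Gdf15 Gpx3 (0.872) and Sorbs3 (0.868). Hbegf was closest to Gas6 (0.934) and Prune2 (0.931), Pdgfa to Tspan4 (0.928) and Scamp5 (0.908), and Pdgfb to the predicted genes Gm5086 (0.909) and Gm41361 (0.906). Osm was closest to Ninj1 (0.939) and Fcgr3 (0.931), and Tgfbi to Plin2 (0.929) and Lyz2 (0.928). Tgfb1 and Areg had the weakest likeness, with Xiap (0.816) and Lims1 (0.80) for Tgfb1 and S100a4 (0.818) and Lmo4 (0.684) for Areg. Among the 10 genes themselves, Pdgfa and Hbegf were most alike (0.877), followed by Igf1 and Bmp2 (0.842).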

How the data were processed

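The study prepared 10x Genomics 3′ libraries with antibody tags from sorted CD45+ cells. Per the labels, the authors used Cell Ranger 7.0.1 with mm10 and deposited raw UMI counts per gene and tag for each barcode, without normalization. The labels and the methods of the study name different kit versions. The genotype and treatment fields of the tag samples contradict their titles, which were followed, and the tags served only to check lineages: a Ly-6G tag count of at least 5 was found in 94.2% of neutrophils.

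Cells needed 200 to 5000 detected genes, with mitochondrial UMIs up to 15%. A cell was gated to the lineage whose summed markers led by a factor of 1.25 with at least 2 markers detected. Macrophages and microglia were parted by score limits of 0.25 and 0.4, set after seeing the data, and 245 cells between them were left out. Doublets were limited by the upper gene limit (Scrublet in scanpy 1.11.5 marked 19 cells, 0.169%, and was not relied on). Macrophage kinds were gated in the same way. Leiden clusters numbered 33, and 95.4% of 9551 cells had the same lineage by gate and cluster.

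Sums per lineage and library went into edgeR 4.0.16 (quasi-likelihood test after TMM scaling, library as block, 3 residual degrees of freedom, genes with at least 20 UMIs), adjusted by Benjamini-Hochberg at 0.05. SE is the absolute log2 fold change divided by the root of F. Laser and genotype were compared as ratios of CPM with exact intervals. A gene passed the fold when laser and control (or the genotypes) differed 2-fold the same way in each pair and the higher library held 20 UMIs or more. Libraries held 7848548 to 38052948 UMIs. Genes, lists and markers were chosen with earlier results of these data known. Named genes were the 10, the 2 most alike each, and up to 3 per list with the largest called change. Of these, only some are printed. The scripts were tested on simulated data. Alternatives included DESeq2 1.42.0, other gates, Leiden clusters and thinning. No deposited sample column was left unused.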

Additional observations from a re-analysis of the deposited data

Results flagged for a closer look

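In 5 comparisons, a growth factor had opposite ratios in the paired groups, with both intervals clear of 1. None of these differences was tested, since each group is 1 library.

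Areg in macrophages was lower after laser in Nr4a1-/- (0.26, 95% interval 0.179 to 0.374) and higher in WT (2.29, 1.84 to 2.88). With the cell of most UMIs left out of each library, the ratios were 0.462 and 2.57. The same 4 libraries gave an Nr4a1-/- to WT ratio of 0.254 (0.182 to 0.346) after laser and 2.23 (1.68 to 2.98) in control, and 0.248 and 1.38 without those cells. In resident macrophages after laser the order of the genotypes was the reverse, at 2.71 (1.45 to 5.05), on 23 UMIs in each library. Their control ratio had an interval that included 1 (0.848, 0.299 to 2.13), on 7 UMIs in Nr4a1-/- and 18 in WT.

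Areg in cDC2 had a laser ratio of 0.482 (0.298 to 0.76) in Nr4a1-/- and 1.69 (1.37 to 2.11) in WT, and of 0.42 and 2.64 without the cell of most UMIs. Areg in NK cells had a laser ratio of 0.211 (0.0419 to 0.661) in Nr4a1-/- and 2.51 (1.13 to 6.14) in WT. In WT it was 1.08 without the cell of most UMIs. Tgfb1 in classical monocytes had a laser ratio of 0.8 (0.691 to 0.923) in Nr4a1-/- and 1.11 (1.01 to 1.23) in WT.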

How the results depend on the processing

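Over 452 of 480 repeats of a growth factor's lineage test, direction and side of the threshold were kept. Of the others, 12 reversed. Areg for phagocytes over lymphocytes was -0.051 (log2) with Leiden clusters. Areg for macrophages over classical monocytes was 0.27 with a gate margin of 2.5 and 0.32 with Leiden clusters, and -0.71 to 0.11 with 1 library left out (0.11 without laser Nr4a1-/-). Tgfbi in the same contrast was -0.079 and -0.014 under those gates, and -0.11 (without laser Nr4a1-/-) to 0.087. Osm for macrophages over microglia was 0.12 with the stricter margin, and -0.25 to 0.018 (without laser WT). Tgfbi for neutrophils over phagocytes was 0.14 with the stricter margin, and -0.25 to 0.24 (0.24 without laser Nr4a1-/-, 0.15 without laser WT). The laser ratio of Areg in WT classical monocytes was 0.609 with the stricter margin and 0.582 with Leiden clusters.

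Leaving out 1 library at a time, 7 to 8 of the 10 genes were called for macrophages over microglia, 7 for macrophages over classical monocytes, 10 for phagocytes over lymphocytes and 7 to 8 for neutrophils over phagocytes. Genes called lower numbered 1214 (without control WT) to 1985 for macrophages over classical monocytes and 1951 (without control WT) to 2708 for neutrophils over phagocytes. For neutrophils, Areg was not called with DESeq2 (-2.76), with no library block (-0.64) or with Leiden clusters (-0.63), and Gdf15 was not called without laser WT (-0.88).

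In macrophages 5 genes passed a fold of 1.5 with laser, 1 higher (8.02% of all 8721 genes judged) and 4 lower with Igf1 and Hbegf added (12.5%). In resident macrophages alone 1 gene, Gdf15, was 2-fold higher (1.05% of 5706 genes) and 0 lower (0.876%). Nr4a1-/- over WT in macrophages gave 1 gene, Gdf15, with no upper limit on genes per cell, and 1, also Gdf15, lower at a fold of 1.5 (1.21% of 9180 genes). Laser in microglia gave 0 genes with Leiden clusters, and 1 with the cell of most UMIs left out, where Igf1 fell under 20 UMIs in laser Nr4a1-/- (ratios 10.7 and 3.14). Laser in classical monocytes gave 0 genes with the stricter margin, with Leiden clusters and with thinning to 2000 UMIs. The resident-only repeat and the repeat without top cells were chosen after seeing the data. The causes of these shifts were not tested. No paired analysis was possible because the groups share only 1 replicate number, with 1 library each. The lineage tests had the library as a block, and an additive fit of laser and genotype was not run. The laser Nr4a1-/- library has the fewest cells and UMIs.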
